A study of Schizosaccharomyces japonicus with 2 samples.

Results

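Away from its dense small RNA loci, the genome of the fission yeast Schizosaccharomyces japonicus also gave small RNA from windows with few reads that nevertheless lay on both strands. These sparse both-strand windows are described here. They are windows of 1 kb in 7 stretches (arms) of the 3 large supercontigs, which leave out the supercontig ends, the central gaps with their flanks and, on supercontig 2, a locus of 9 kb. A window belonged to the set where it held under 100 RPM in each library, at least 20 reads over both libraries and a minor strand of at least 10% of the pooled reads. RPM are reads per 1000000 reads of 21 to 28 nt outside bases 1 to 37000 of supercontig 3, a region with reads of 1 strand. The set held 108 windows, of 10083 windows in the arms and of 10234 windows with any such read in the whole series. The members were thus chosen by their strand share, number of reads and RPM, and these values are given as a description only.

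The 2 libraries, replicate 1 and replicate 2, came from the wild-type strain yFS275 in logarithmic growth, with no other genotype or treatment. RNA was ligated through its 5′ monophosphate and 3′ hydroxyl. The labels call them replicates without naming separate cultures, so differences between the libraries can be technical, and with 1 group no condition was compared. The libraries held 889190 and 2457514 reads in the RPM base, so that 1 read stood for 1.12 RPM in replicate 1 and 0.407 RPM in replicate 2.

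In fission yeasts, small interfering RNA is cut by Dicer from double-stranded RNA and loaded on Argonaute, and it is best known from repeats and retrotransposons around centromeres and at chromosome ends, where it takes part in silencing. Reads of both strands are a mark of such RNA, because Dicer cuts both strands of a duplex and leaves 2-nt overhangs at the 3′ ends. Breakdown of ordinary transcripts also leaves short RNA, which lies on the transcribed strand, so neighbouring transcripts of opposite strands can place reads of both strands in 1 window. The gene table at hand belongs to another assembly, so what the windows encode was not analysed here.

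Sparse both-strand windows carried little RNA. They held 1938 of 152750 arm reads in replicate 1, or 1.27% (95% Clopper-Pearson interval 1.21 to 1.33), and 3442 of 240466 in replicate 2, or 1.43% (1.38 to 1.48), which makes 1.35% ± 0.115 (SD, n = 2). Of all reads in the RPM base this was 0.218% and 0.140%. These intervals, and all others given for shares of reads and counts of pairs, cover counting error only. Intervals for shares of windows treat windows as independent draws. They cover neither the counting error of the reads nor differences between libraries. A member held a median of 13 reads in replicate 1 (3 to 75) and 19 in replicate 2 (6 to 208), and 54 of the 108 had fewer than 30 reads in sum. The 14 members with 100 or more reads held 38.5% of the 5380 reads.

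The minor strand rested on few reads in most members. It had a median of 7.5 reads (2 to 103) at a median of 6 positions, fewer than 5 reads in 31 members, and a single position in 3. The pooled minor share had a median of 20% and reached 49.3%. Of the 1268 arm windows with 20 or more reads, 140 or 11% had a pooled minor strand of 10% or more. In 68 members the smaller strand of each library held 10% or more of that library's reads, against 67.1% of those 140 windows. In 22 members replicate 1 had reads on 1 strand only, and in 1 member replicate 2 did. Summed window by window, with the smaller strand taken anew in each library, it held 22.4% in replicate 1 and 23.8% in replicate 2. These are 434 of 1938 and 820 of 3442 reads. The strand that was minor in the pooled reads held 505 reads in replicate 1 and 830 in replicate 2.

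The libraries mostly gave the members the same leading strand. Among 65 members with 10 or more reads in each library, the leading strand was the same in 56, opposite in 8 and undecided by a tie in the other. It was the same in 98.9% of all arm windows with as many reads, most of them of 1 strand, and in 88.7% of those with a pooled minor strand of 10% or more. The share of plus-strand reads differed between the libraries by a median of 11.7 percentage points (interquartile range 5.38 to 23.1). Plus was the leading strand in 50 members and minus in 58.

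Members just inside and just outside the limits show how narrow the borders were. The member nearest the RPM limit lay at bases 2768001 to 2769000 of supercontig 1 with 72.0 RPM in replicate 1 and 84.6 in replicate 2. The next lay at bases 263001 to 264000 of supercontig 2 with 84.3 and 52.1 RPM. Just outside were bases 1783001 to 1784000 of supercontig 1 with 94.5 and 106 RPM and bases 1989001 to 1990000 of supercontig 3 with 106 and 36.2 RPM. At the limit on reads, 10 members had exactly 20, and 14 windows that met the other limits had 19. At the limit on strand, 10 members had a minor share from 10% to under 11%, of which 5 were at exactly 10%, and 18 windows with enough reads had 9% to under 10%.

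**Figure D1:**
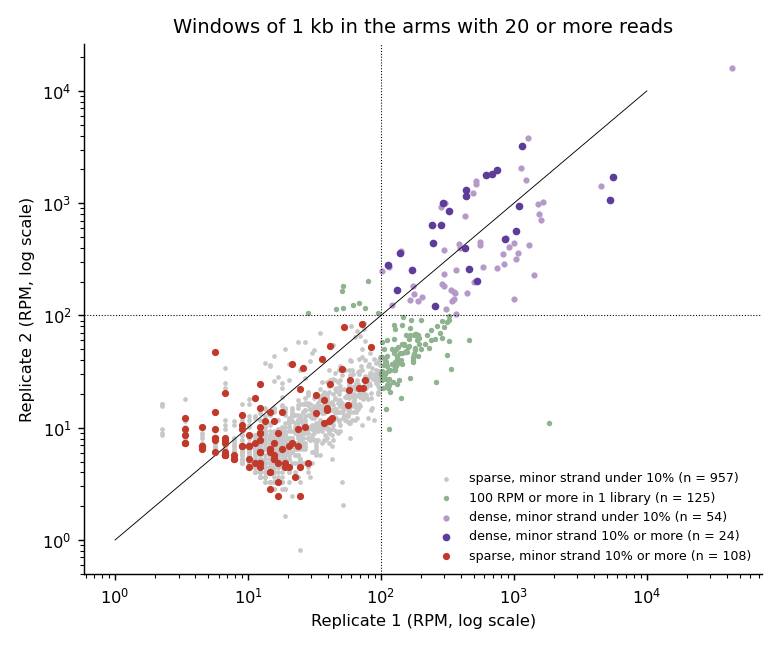
RPM of replicate 1 (x, log scale) and replicate 2 (y, log scale) for the 1268 arm windows with 20 or more reads, 1 point a window, with dotted lines at 100 RPM and a solid line of equal RPM. The 108 sparse both-strand windows lie among the sparse one-strand windows in the lower left, and the 24 dense both-strand windows lie above 100 RPM in both libraries.

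The members were scattered along the arms. They formed 102 runs of adjacent members, of which 96 were single windows and 6 were pairs, and no run was longer. The arms held from 2 members in 361 windows, on supercontig 2 from base 2023001 to 2384000, to 27 members in 1733 windows, on supercontig 2 from base 70001 to 1803000. Taken against the windows of 20 or more reads in the same arm, these are 3.77% (0.460 to 13.0) and 11.9% (8.02 to 16.9), with overlapping intervals, and over all arms the share was 8.52%. Of 100 bins of up to 100 kb, 36 held no member and the fullest held 5.

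The distance to dense small RNA was near that of other arm windows. The nearest dense window, with 100 RPM or more in each library, was a median of 49.5 kb away (interquartile range 13.8 to 115), against 57 kb (22 to 121) over all arm windows with 20 or more reads. Another dense window lay within 2 kb of 8 members, or 7.41% (3.25 to 14.1), against 6.7% of all arm windows with 20 or more reads. It was within that distance of 33 of 957 sparse one-strand windows, or 3.45% (2.39 to 4.81), and of 15 of 24 dense both-strand windows. Of the 8 members, 6 drew more than 50% of their reads from sequences with several places, which are listed at 1 of those places. With only reads of a single best place counted, also in the dense windows, 0.926% of the same members lay within 2 kb of a dense window. The RPM base was unchanged there, so windows could only be lost from the dense ones.

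Within a window, the strands often lay apart. For each member the chance was computed that a plus-strand read starts to the left of a minus-strand read of the same window, called the strand order: near 1 the plus reads lie on the left and the strands run toward each other, near 0 the minus reads lie on the left and the strands run away from each other, and near 0.5 they are intermingled. Plus reads lay on the left, at 0.9 or more, in 32 members, and minus reads on the left, at 0.1 or less, in 10. The shares are 29.6% (21.2 to 39.2) and 9.26% (4.53 to 16.4), against 25% and 12.1% of the 140 arm windows with 20 or more reads and the same strand limit, which include the members. Another 48 members were intermingled, from 0.25 to 0.75, and 18 lay in between. Over all members 72 had a strand order above 0.5 and 35 below it, and the median was 0.693.

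The strand order mostly kept its side in the other library, as it also did outside the members. Of 85 members with both strands in both libraries, 26 had a strand order of 0.9 or more in replicate 2, and 25 of these were above 0.5 in replicate 1, with a median of 1. This was so for 84.9% of all arm windows with 20 or more reads, both strands in both libraries and such an order in replicate 2, and 51 of the 85 members were above 0.5 in replicate 1 whatever their order in replicate 2. Of 11 members at 0.1 or less in replicate 2, 11 were below 0.5 in replicate 1, with a median of 0, against 84.6% of such arm windows and 26 of all 85 members. Chosen in replicate 1 instead, 31 of 34 members at 0.9 or more and 11 of 11 at 0.1 or less lay on the same side in replicate 2, against 84.8% and 84.1% of the arm windows.

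**Figure D2:**
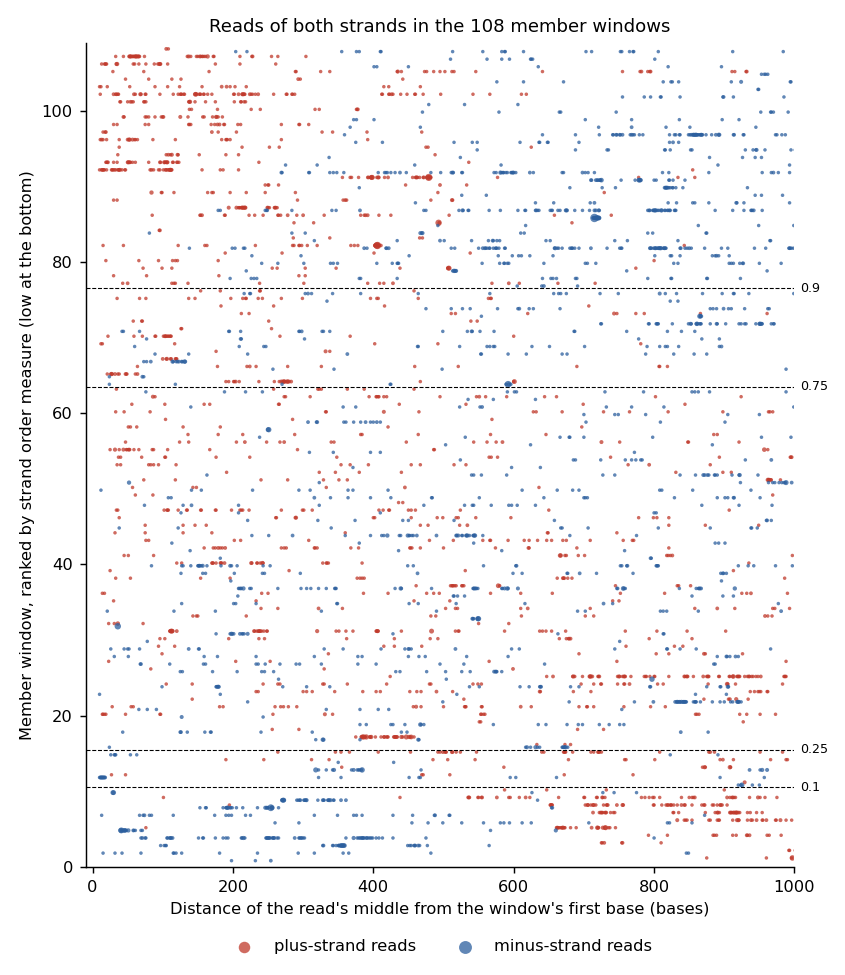
Reads of both libraries in the 108 members, 1 row a member, ranked by strand order with the lowest at the bottom; x is the distance from the window's first base to the read's middle in bases, red marks plus-strand and blue minus-strand reads, the size of a point grows with its reads, and dashed lines mark strand orders of 0.1, 0.25, 0.75 and 0.9. In the 32 rows at the top most red points lie on the left of the blue ones, without exception in 11, and in the 10 rows at the bottom most lie on the right, without exception in 3.

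In 11 members all plus reads started to the left of all minus reads. The stretch between the last plus read and the first minus read then had a median of 114 bases, from an overlap of 3 bases to a gap of 459. The clearest case with 100 or more reads was at bases 468001 to 469000 of supercontig 1. It had 48 plus and 3 minus reads in replicate 1 and 45 plus and 8 minus reads in replicate 2, separated by 114 bases. At bases 1500001 to 1501000 of supercontig 1 the strands were nearly equal, with 32 plus and 33 minus reads in replicate 1 and 21 and 35 in replicate 2. Its strand order was nevertheless 0.98, and 1.65% of its reads overlapped a read of the other strand. Bases 263001 to 264000 of supercontig 2, with 46 plus and 29 minus reads in replicate 1 and 105 and 23 in replicate 2, also had a strand order of 0.98. The strands shared no stretch in the first of these 3 windows. In the others some reads lay within the stretch of the other strand, and in the last 9.85% of reads overlapped a read of the other strand.

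The opposite arrangement was complete in 3 members of 22 to 72 reads, and among members with 100 or more reads it was strongest in 3 other windows. Bases 463001 to 464000 of supercontig 3 held 23 plus and 9 minus reads in replicate 1 and 33 and 68 in replicate 2, with a strand order of 0.00 in each library, and 93.2% of its reads had several places. Bases 3231001 to 3232000 of supercontig 1 held 25 plus and 12 minus reads, then 39 and 93, with a strand order of 0.02 and 63.9% of its reads from several places. Bases 1688001 to 1689000 of supercontig 1 held 28 plus and 24 minus reads, then 28 and 38, again with a strand order of 0.02. This last window had the most even strands of the members with 100 or more reads, with a minor share of 47.5%.

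The windows on either side, whose reads the rule did not use, changed strand across most of the 30 members, of 108, that could be judged. A neighbouring window was given a strand where it had 5 or more reads, 90% or more of them on that strand, a description chosen after the data were examined. Of 30 members with a strand on both sides, 16 had plus on the left and minus on the right, or 53.3% (34.3 to 71.7), against 13.4% of the 434 arm windows with 20 or more reads and a strand on both sides. The reverse, minus on the left and plus on the right, was found in 7, or 23.3% (9.93 to 42.3), against 9.68%. The same strand on both sides was found in 7 members, 5 with plus and 2 with minus, or 23.3%, against 77.0%. The 434 windows include the 30 members, and most of them are sparse one-strand windows. The members were chosen for reads on both strands, so this comparison is not independent of the rule. No background of windows with the same strand limit was computed here. Among 353 sparse one-strand windows with a strand on both sides, 36 or 10.2% (7.25 to 13.8) had plus then minus, 28 had minus then plus, and 289 had the same strand on both sides.

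This change of strand followed the arrangement inside the window. Of 14 members with plus reads on the left and a strand on both sides, 12 had plus then minus, or 85.7% (57.2 to 98.2). Of 3 such members with minus reads on the left, 3 had minus then plus. In the 7 intermingled members with a strand on both sides, 3 had plus then minus, 1 had minus then plus and 3 had the same strand on both sides. One exception among the named windows was bases 1314001 to 1315000 of supercontig 2, with 28 plus and 39 minus reads in replicate 1 and 10 and 56 in replicate 2, where a strand order of 0.97 stood between a minus window on the left and a plus window on the right. Another was bases 395001 to 396000 of supercontig 3, also at 0.97, which had plus windows on both sides.

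**Figure D3:**
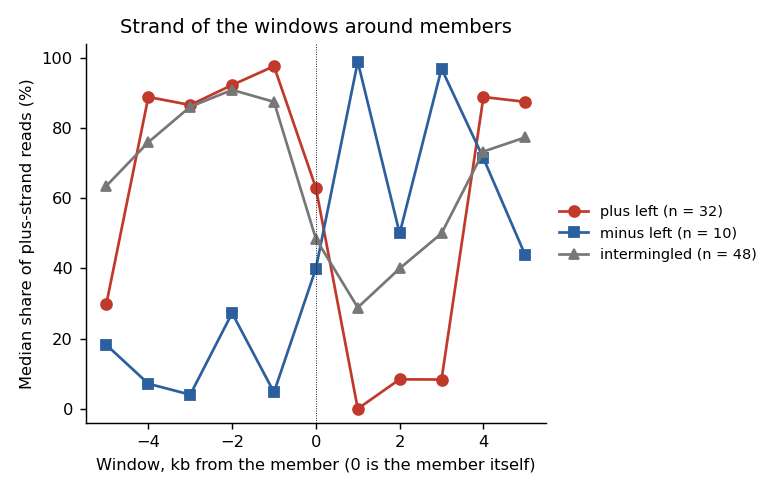
Median share of plus-strand reads (y, %) in windows from 5 kb left to 5 kb right of the member (x), over both libraries and over windows with 5 or more reads, for members with plus reads on the left (32), minus reads on the left (10) and intermingled strands (48). For the first the median falls from 97.7% at 1 kb left to 0% at 1 kb right, for the second it rises from 4.69% to 98.9%, and for the third it falls from 87.5% to 28.9%.

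Few reads of a member overlapped a read of the other strand. The share of a window's reads that overlapped an opposite-strand read of the same library by at least 1 base had a median of 7.65% (interquartile range 0 to 20) and was 0 in 43 members. The median was 0 in each library alone, and 0 over all arm windows with 20 or more reads. It was 50% or more in 12, or 11.1% (5.87 to 18.6), against 6.78% of all arm windows with 20 or more reads. In the 24 dense both-strand windows the median was 83.8%, but these held a median of 2114 reads against 29.5 in the members. With the dense windows thinned at random to the members' median reads of 13 and 19, their median share was 15.6% (interquartile range 4.69 to 31.2). The thinned dense windows had a strand order of 0.9 or more in 5 and of 0.1 or less in 2 of 24, against 2 and 2 at full depth. This was 1 random draw, and it matched the members' median reads only.

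The 12 members with an overlap of 50% or more differed among themselves. The highest, chosen after its values were seen, was bases 1582001 to 1583000 of supercontig 3 at 97.5%, with 2 plus and 6 minus reads in replicate 1 and 12 and 20 in replicate 2. All its reads had several places, 47.5% were of 23 nt, and the window lay 1 kb from a dense window. At bases 2768001 to 2769000 of supercontig 1, the member with the most reads, 63.6% of reads overlapped the other strand. It held 23 plus and 41 minus reads in replicate 1 and 146 and 62 in replicate 2, so that the leading strand changed. Of these, 12 and 82 plus reads began at the same base, 2768396, and 41.2% of the reads were of 21 nt. At bases 3511001 to 3512000 of supercontig 1, 85.0% of reads overlapped. It held 3 plus and 2 minus reads in replicate 1 but 51 and 64 in replicate 2, with 50% of the reads at 23 nt and 90.8% from several places, and lay 3 kb from a dense window. A window chosen after its values were seen, bases 4147001 to 4148000 of supercontig 1, had 92.7% overlap, 89.1% of its reads at 21 nt and 78.2% of them at 1 position.

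Reads of the members were not of 1 dominant size. In replicate 1, 27.8% were of 21 nt (25.8 to 29.9) and 19.5% of 23 nt (17.8 to 21.3), and in replicate 2 these were 25.8% (24.3 to 27.3) and 24.2% (22.8 to 25.7). Over the libraries 23 nt held 21.9% ± 3.34 (SD, n = 2). Reads below 21 nt fall outside the labelled sizes, so a maximum below that span would not be seen. The sparse one-strand windows had nearly the same profile, with 25.6% and 25.3% at 21 nt and 20.03% (19.5 to 20.5) and 20.99% (20.5 to 21.5) at 23 nt. The shares of 23 nt thus had overlapping intervals in replicate 1 and separate ones in replicate 2. The dense both-strand windows had 21.3% (20.7 to 21.8) and 32.4% (32.01 to 32.8) at 23 nt. In replicate 2 the members lay between these classes. Window by window, 21 nt was the most frequent span without a tie in 39 members, or 36.1%, against 39.1% of all arm windows with 20 or more reads, and 23 nt in 21, or 19.4%, against 16.2%, both near the background.

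**Figure D4:**
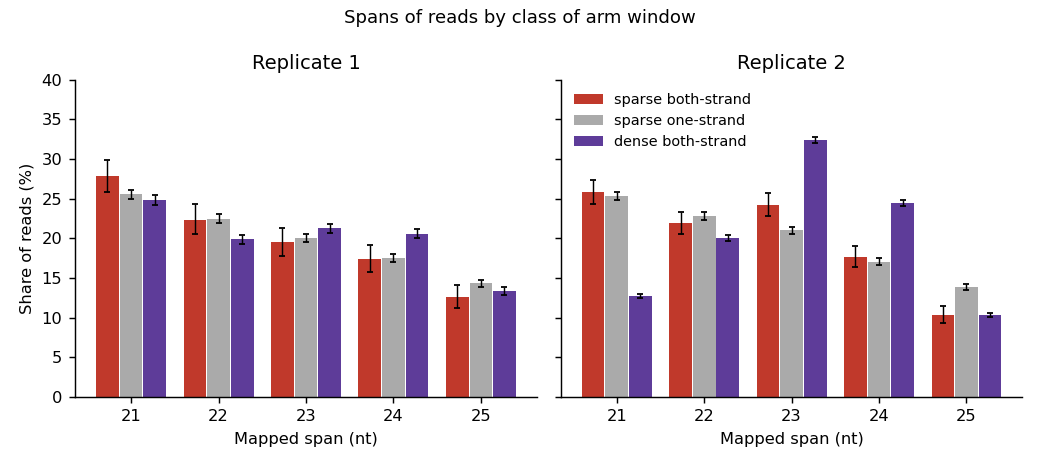
Share of reads (y, %) by mapped span (x, nt) in replicate 1 and replicate 2 for the 108 sparse both-strand, 957 sparse one-strand and 24 dense both-strand windows of the arms; bars start at 0 and error bars are 95% Clopper-Pearson intervals. The members stay close to the sparse one-strand windows, and dense both-strand windows stand out at 23 nt in replicate 2 with 32.4%.

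The 2 strands of the members, named minor and leading by the pooled reads, differed at 21 nt in replicate 2. There 19.04% of minor-strand reads (16.4 to 21.9) and 27.9% of leading-strand reads (26.2 to 29.7) were of 21 nt, while at 23 nt the intervals overlapped, with 27.3% (24.3 to 30.5) and 23.2% (21.6 to 24.9). In replicate 1 the intervals overlapped at 21 nt, with 30.7% (26.7 to 34.9) of minor-strand and 26.8% (24.5 to 29.2) of leading-strand reads at 21 nt. A single window moved the leading strand: bases 395001 to 396000 of supercontig 3 held 16 plus and 31 minus reads in replicate 1 and 14 and 181 in replicate 2, of which 21 and 131 began at base 395726 on the minus strand, and 67.4% of its reads were of 21 nt. Without it, 24.5% (22.8 to 26.3) of leading-strand reads in replicate 2 were of 21 nt and 24.4% of 23 nt. The interval for 21 nt then still lay above that of the minor strand, at 19.4% (16.7 to 22.2).

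Reads from sequences with several places made up 17.6% of the members' reads in replicate 1 and 27.9% in replicate 2, or 22.8% ± 7.24 (SD, n = 2), against 14.5% and 15.9% in sparse one-strand windows and 81.6% and 66.7% in dense both-strand ones. They were unevenly spread, as 69 members had none, 81 had under 10% and 17 had 50% or more, 4 of these with every read. The 17 are 15.7% of the members (9.45 to 24), against 15.3% of all arm windows with 20 or more reads, so the share is near the background. In sparse one-strand windows it was 83 of 957, or 8.67% (6.97 to 10.6).

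In read size those 17 members differed from the others. In replicate 2, 32.0% of their reads were of 23 nt (28.9 to 35.1) and 13.4% of 21 nt (11.3 to 15.8). In the other 91 members these were 21.4% (19.8 to 23.1) and 30.3% (28.5 to 32.1). In replicate 1 they had 19.9% at 21 nt (15.7 to 24.6) against 29.4% (27.2 to 31.8), and 20.8% (16.5 to 25.5) against 19.2% (17.3 to 21.2) at 23 nt, where the intervals overlapped. In dense both-strand windows 24.8% of reads were of 21 nt in replicate 1, about as far from the 17 members as from the other 91. In replicate 2 those dense windows had 12.7% (12.4 to 13.0) at 21 nt and 32.4% at 23 nt, near the 17 members. Plus reads lay on the left in 1 of the 17 and in 31 of the 91, and minus reads on the left in 4 and in 6. Without the 17, the share of 23-nt reads over the libraries was 20.3%. The split by places was made after the data were examined.

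Reads at a single position made up little of most members. The most used 5′ position held a median of 9.93% of a window's reads, and 50% or more in 8 members, or 7.41% (3.25 to 14.1), against 4.65% of all arm windows with 20 or more reads. Sequences seen once made up 91.7% of the members' sequences in replicate 1 and 89.5% in replicate 2, against 70.8% and 66.3% in dense both-strand windows, which are far deeper. Bases 2881001 to 2882000 of supercontig 3, named after its values were seen, had 76.8% of its reads at 1 position and 75% at 23 nt, with 1 plus and 5 minus reads in replicate 1 and 46 and 4 in replicate 2.

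The duplex geometry of Dicer was not detectable at this depth. Pairs of positions of 1 span on opposite strands, offset so that each 3′ end overhangs by 2 nt, numbered 0 in replicate 1, against a mean of 0.55 at the other differences within 10 nt, and 3 in replicate 2, against 2.8 ± 1.32 (SD over 20 differences). Summed, 3 pairs stood against 3.35, a ratio of 0.896 (0.185 to 2.62 from the counting error of the 3). That range includes 1.35, the ratio of the dense both-strand windows, with 771 pairs against 571.6. The ratio was not lower in windows of mainly 1 strand. It was 1.90 (0.947 to 3.39) in sparse one-strand windows, with 11 pairs against 5.8. In dense one-strand windows it was 1.59 (1.35 to 1.85), with 159 pairs against 100.3. The 3 pairs lay in 3 windows, at bases 3511001 to 3512000 of supercontig 1, 1314001 to 1315000 of supercontig 2 and 2881001 to 2882000 of supercontig 3.

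Diverging 5′ ends gave more pairs. Ends on opposite strands with 2 nt between them numbered 2 in replicate 1 against a mean of 3.3 and 9 in replicate 2 against 11.2 at other gaps within 10 nt. The summed ratio was 0.756 (0.377 to 1.35), and it was 1.46 in dense both-strand windows, with 1202 pairs against 823. Pairs that share an end are not independent, and with the windows moved by 500 bases the members' ratio was 1.02. No excess at this gap was seen in the members.

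**Figure D5:**
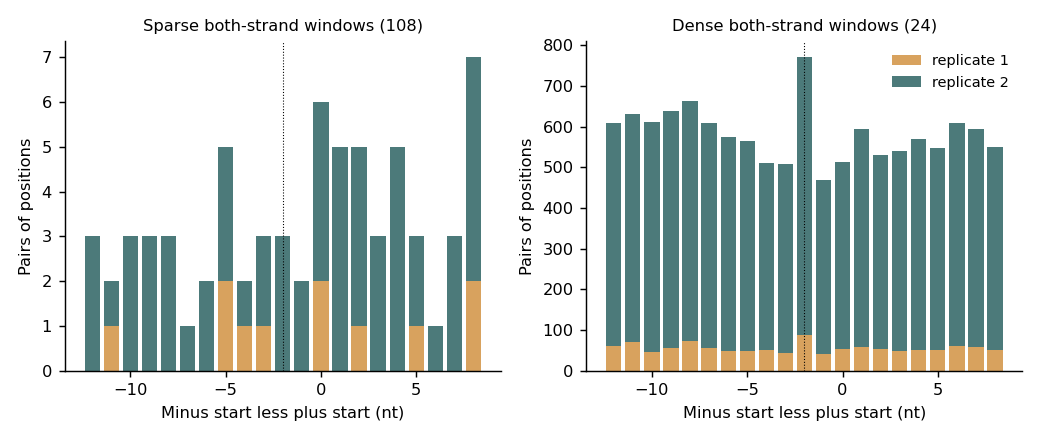
Pairs of positions of 1 span on opposite strands (y, number of pairs, replicate 2 stacked on replicate 1) by the start of the minus-strand read less that of the plus-strand read (x, nt), with a dotted line at the difference of 2-nt 3′ overhangs. In the 108 sparse both-strand windows that difference had 3 pairs among 3.35 on average, and in the 24 dense both-strand windows 771 among 571.6.

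The members stood between the sparse one-strand and the dense both-strand windows in the ratio of the libraries. The RPM of replicate 2 was a median of 0.655 times that of replicate 1 over the members (interquartile range 0.362 to 1.15). The 95% binomial interval of this median, 0.465 to 0.769, treats windows as independent draws. All windows share the same 2 libraries, so it gives no uncertainty for the ratio between libraries. The direction of the ratio rests on the RPM base. With all reads of 21 to 28 nt as the base, the rule chose 117 windows, and their log2 median was 0.61, against -0.61 in the first base. Over the same windows, another base multiplies every ratio by 1 factor. The median was 0.40 over sparse one-strand windows, 0.40 over all arm windows with 20 or more reads, and 2.02 over dense both-strand windows, in the first base. The members' limits on RPM and reads bound these ratios. A ratio of 0.5 or less was found in 47 members, or 43.5% (34.0 to 53.4), against 63.6% of all arm windows with 20 or more reads, and a ratio of 2 or more in 9, or 8.33% (3.88 to 15.2), against 4.81%. It had a median of 1.22 in the 17 members with mostly several places and 0.53 in the other 91.

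Among members with 100 or more reads, the ratio ran from 0.31 to 8.32. The lowest were bases 1500001 to 1501000 of supercontig 1 at 0.31, bases 387001 to 388000 of supercontig 1 at 0.33, with 46 plus and 15 minus reads in replicate 1 and 50 and 5 in replicate 2, and bases 1314001 to 1315000 of supercontig 2 at 0.36. The highest were bases 3511001 to 3512000 of supercontig 1 at 8.32, bases 3985001 to 3986000 of supercontig 1 at 1.71, with 16 plus and 3 minus reads and then 71 and 19, and bases 395001 to 396000 of supercontig 3 at 1.5. In the first of these high windows 56 of the replicate 2 reads began at base 3511604 on the minus strand and none in replicate 1. The most used position also had no read in replicate 1 at bases 3231001 to 3232000 of supercontig 1, with 57 reads in replicate 2, and in 4 other members with 100 or more reads.

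The longest runs were pairs of windows. The 5 pairs with most reads lay at bases 387001 to 389000 of supercontig 1 with 145 reads, 84.1% of them plus, and at 353001 to 355000 of supercontig 2 with 102 reads, 52.9% plus. The others lay at 2072001 to 2074000 of supercontig 3 with 79 reads, 21.5% plus, at 156001 to 158000 of supercontig 2 with 71 reads, 70.4% plus, and at 3494001 to 3496000 of supercontig 2 with 60 reads, 45.0% plus. In the pair at bases 353001 to 355000 of supercontig 2 the arrangement turned over: the left window, with 20 plus and 9 minus reads in replicate 1 and 26 and 7 in replicate 2, had its minus reads on the left at a strand order of 0.01, and the right window, with 2 and 10 and then 6 and 22, had its plus reads on the left at 0.92. Both windows had reads of a single best place only.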

How the data were processed

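Small RNA of wild-type Schizosaccharomyces japonicus was profiled in 1 group of 2 libraries. The deposited lists give, per the file contents, sequences with 1 listed place each, a name that joins a rank and a whole number, read here as raw counts of reads, and a mapping score. The mapping score deposited by the authors lies between 0 and 37, where 0 was taken to mean several equally good places. The name, start and end columns of the deposited lists hold no normalized values. BWA is named in the submitters' processing notes, with the genome build, the version and the settings not given in the sources used here. Bases are numbered from 1.

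Each read with a span of 21 to 28 nt was assigned to the window of 1 kb that holds its first listed base. Sparse one-strand windows met the same limits on RPM and reads with a pooled minor strand under 10%, and dense windows had 100 RPM or more in each library. The members, comparisons and measures were chosen with earlier results of these data known. Members are regions, not replicates, so no test was run, and shares carry exact Clopper-Pearson intervals at 95%. A window was named where it led the members in mean RPM or run length, led those of 100 or more reads in strand balance, strand order, pairs or library ratio, or lay at a limit. Pair counting, strand order and overlap were tested on simulated data (Python 3.11.15, numpy 2.4.6, pandas 2.3.3, scipy 1.17.1, matplotlib 3.10.9). Alternatives were other limits, reads of a single best place, distinct sequences, windows moved by 500 bases, another RPM base and single libraries.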

Additional observations from a re-analysis of the deposited data

Results flagged for a closer look

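Reads under 21 nt, left out of the counts above, were found in the members, at 20 reads in replicate 1 and 52 in replicate 2, above the 3 reads that a count of 0 allows. They made up 1.02% (0.625 to 1.57) and 1.49% (1.11 to 1.95) of all reads there, against 0.170% and 0.418% in sparse one-strand windows, 0.0104% and 0.0412% in dense both-strand windows and 0.699% and 1.26% in arm windows under 20 reads. They lay in 7 and 12 members, and 7 and 22 of them lay at bases 3985001 to 3986000 of supercontig 1.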

How the results depend on the processing

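No paired analysis was possible because there is 1 group. The alternatives were computed 136 times in all, and 97 were labelled the same as the main value. Numbers of members and of members with strands apart were so labelled within a set factor of the main value. The other results were so labelled within its spread or interval. Some of these labels could only be the same, and the 97 include them. With 1 library left out, this held for results averaged over the 2 libraries, because their spread came from the same 2 values. With each distinct sequence counted once, it held for the duplex and diverging-end ratios, which already count distinct positions. The median library ratio (log2 -0.61) reversed to 0.61 with an RPM base of all reads, where the rule chose 117 windows with 2.05% of arm reads. Reads of a single best place alone gave a share of arm reads of 2.22% and a duplex ratio of 1.67. The minor share, here and below that of the smaller strand in each library, was 21.8%, and the share near dense windows 0.926%. With each distinct sequence counted once they were 2.70% of the arms, a minor share of 24.3% and 15.7% near dense windows. In both of these settings the values are of the main members, while the dense windows were chosen anew. At a limit of 50 RPM the share of the arms was 0.925%, the diverging-end ratio 0.898 and the minor share 21.7%. With a minimum of 50 reads 30 members remained, at 0.793% of the arms, with 31.5% of reads from several places, a minor share of 25.2%, 16 with strands apart and 11.4% overlap. At a minor strand of 20% or more there were 57 members, 0.756% of the arms, a minor share of 31.2% and 24 with strands apart, against 42. At 10% or more in each library there were 68, with 0.908% and 27.6%. With windows moved by 500 bases the diverging-end ratio was 1.02 and the minor share 20.4%, and 62 of 125 members had strands apart. With neighbours within 40 nt the diverging-end ratio was 0.963. 2 further settings were chosen after seeing the data. Without the 17 members of several places, the members held 1.05% of the arms, with 6.76% of reads from several places and 2.2% near dense windows. Without members of 100 or more reads they held 0.842%, with a minor share of 20.7%. Leaving out 1 library, the rule found 30 to 77 members. Over the main members, single libraries gave a duplex ratio of 0 to 1.07 and a diverging-end ratio of 0.606 to 0.8. Median overlap was 0 in each, and the most used position held 11.8% to 15.4%. The cause of these shifts was not tested, except that the number of members falls by construction with a higher minimum or a stricter strand limit. With 1 library the limits applied to that library alone, so windows could enter as well as leave. The pairs rest on 3 counts, and the minor strand on a median of 7.5 reads.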
